A study of Mus musculus with 67 samples.

Results

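Potassium channel genes were taken as the mouse genes with a symbol of the form Kcn, letters, number (pore-forming subunits and their auxiliary subunits), without Kcnj10 and Kcnj13, that reached a CPM (reads of a gene scaled to a common library size) of 1 in at least 3 libraries of a tissue. By that rule 65 of 16926 genes were followed in retina and 60 of 16712 genes in retinal pigment epithelium (RPE). Together these were 76 genes, of which 49 were present in both tissues, 16 in retina alone and 11 in RPE alone. The CPM minimum removed 0 of these genes from either deposited table.

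Potassium channels set the resting potential of neurons and epithelia and shape how a cell returns to rest after a stimulus. In rod and cone photoreceptors, channels that contain the silent subunit Kv8.2 (Kcnv2) carry the outward current of the inner segment that balances the dark current. In the RPE, KCNQ channels and inward rectifiers carry potassium across the epithelium between the subretinal space and the choroid.

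RNA was measured by stranded mRNA sequencing in mice that lack Abca4 and Rdh8, a photosensitive genotype in which retinoid clearance after light is slowed. All 33 libraries carried this genotype, and the labels of these libraries give no age, sex or treatment. The reference group NB held 6 retina and 5 RPE libraries, and the times 6h, 1d and 3d held 3, 4 and 4 libraries of each tissue. The labels do not spell out NB or the event from which time was counted. Each library pooled both eyes of 1 mouse, and RPE cells were shaken free from the opened eyecup, so other cells of the eye could be carried along. The 6h libraries of both tissues, retina NB A1 and NB A2 and RPE NB A1 were deeper (22.6 M to 32.4 M reads) than all other libraries (9.45 M to 15.2 M).

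Promoter sequence is shown for Kcne2, Kcng4 and Kcnj8 (GRCm38.p6, 5′ to 3′ on the gene's strand). Of 13 members with large changes at 1d or 3d, 7 had a RefSeq promoter entry, and Kcnv2 and Kcnj14 had none. The 3 shown are those whose 250 bases before the RefSeq start lie wholly outside the annotated gene. Kcne2 had 2 entries, and only the entry outside the gene is shown. Kcne2 encodes an auxiliary subunit of KCNQ and ERG channels (chr16:92292139-92292388, plus strand), Kcng4 a silent Kv subunit (chr8:119635681-119635930, minus strand) and Kcnj8 the Kir6.1 pore of ATP-sensitive channels (chr6:142571615-142571864, minus strand). Capitals mark GATTA or its reverse complement TAATC, the core of sites bound by homeodomain factors of the CRX type.
Kcne2: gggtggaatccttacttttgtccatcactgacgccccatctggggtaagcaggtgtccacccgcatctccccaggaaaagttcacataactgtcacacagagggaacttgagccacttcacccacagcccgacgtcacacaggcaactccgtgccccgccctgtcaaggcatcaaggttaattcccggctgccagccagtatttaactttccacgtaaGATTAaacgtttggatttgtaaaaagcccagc
Kcng4: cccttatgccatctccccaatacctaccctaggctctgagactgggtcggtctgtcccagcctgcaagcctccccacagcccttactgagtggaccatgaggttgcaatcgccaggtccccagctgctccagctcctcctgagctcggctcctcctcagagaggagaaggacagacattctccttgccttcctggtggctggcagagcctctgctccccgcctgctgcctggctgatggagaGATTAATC
Kcnj8: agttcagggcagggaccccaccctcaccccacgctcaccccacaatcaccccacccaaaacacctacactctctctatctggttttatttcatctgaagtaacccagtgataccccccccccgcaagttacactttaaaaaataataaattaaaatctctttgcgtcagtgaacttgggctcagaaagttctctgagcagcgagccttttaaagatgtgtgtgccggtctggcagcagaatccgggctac
The core began 32 bases before the start of Kcne2, and 8 and 5 bases before the start of Kcng4 in overlapping matches on opposite strands. This short core was searched only after 4 longer motifs had given 0 matches in these 3 windows, and it stands in 19.8% of all 32851 promoter windows of this length and in 17 of the 76 windows of the 52 members with an entry. The 4 motifs searched first, on both strands, were TAATCC (6.25% of all windows, 1 of 76 member windows), TTCNNNGAA (7.02%, 7 of 76), TGACTCA (4.46%, 2 of 76) and CATGTG (12.2%, 0 of 76). The median GC content of the member windows was 58.8%, against 52.4% over all windows. These matches describe the letters only.

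In retina the potassium channel genes held a few members that fell steeply, among them Kcnv2, Kcnj14 and Kcne2 at 1d, and a larger set called higher by small amounts. Against NB, 13 members were higher and 4 lower at 6h, 23 higher and 7 lower at 1d, and 27 higher and 5 lower at 3d (limma on log2(CPM + 0.5), Benjamini-Hochberg adjusted p under 0.05). Over all tested genes, 16.9% were called higher and 18.5% lower at 6h, 24.0% and 27.5% at 1d, and 19.3% and 23.9% at 3d. The members' higher share was thus 20.0%, 35.4% and 41.5%, and their lower share 6.15%, 10.8% and 7.69%. The median log2 fold change of the members was 0.08, 0.15 and 0.21 at the 3 times, beside 0.00, -0.01 and -0.02 over all genes. The 3 comparisons share the NB libraries. Across them 45 members were called at 1 time or more, 5 (Kcna6, Kcnab3, Kcnd3 and Kcnt1 among them) were higher at all 3 times, 2 (Kcnv2 and Kcnj14) were lower at all 3, and 20 were called at no time. Over all genes these shares were 69.5%, 6.31%, 8.55% and 30.5%, so the number of members called at all was near the background.

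Markers of inner retinal neurons were called higher at 3d by amounts like those of the members. At 3d 4 of 6 bipolar markers were higher (median log2 fold change 0.22) and 5 of 8 amacrine, horizontal and ganglion cell markers (median 0.23). At 1d 2 bipolar markers were higher and 3 lower (median -0.15), and 3 of the 8 others were higher (median 0.15). The part of cell composition in the members' rise was not tested.

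**Figure D1:**
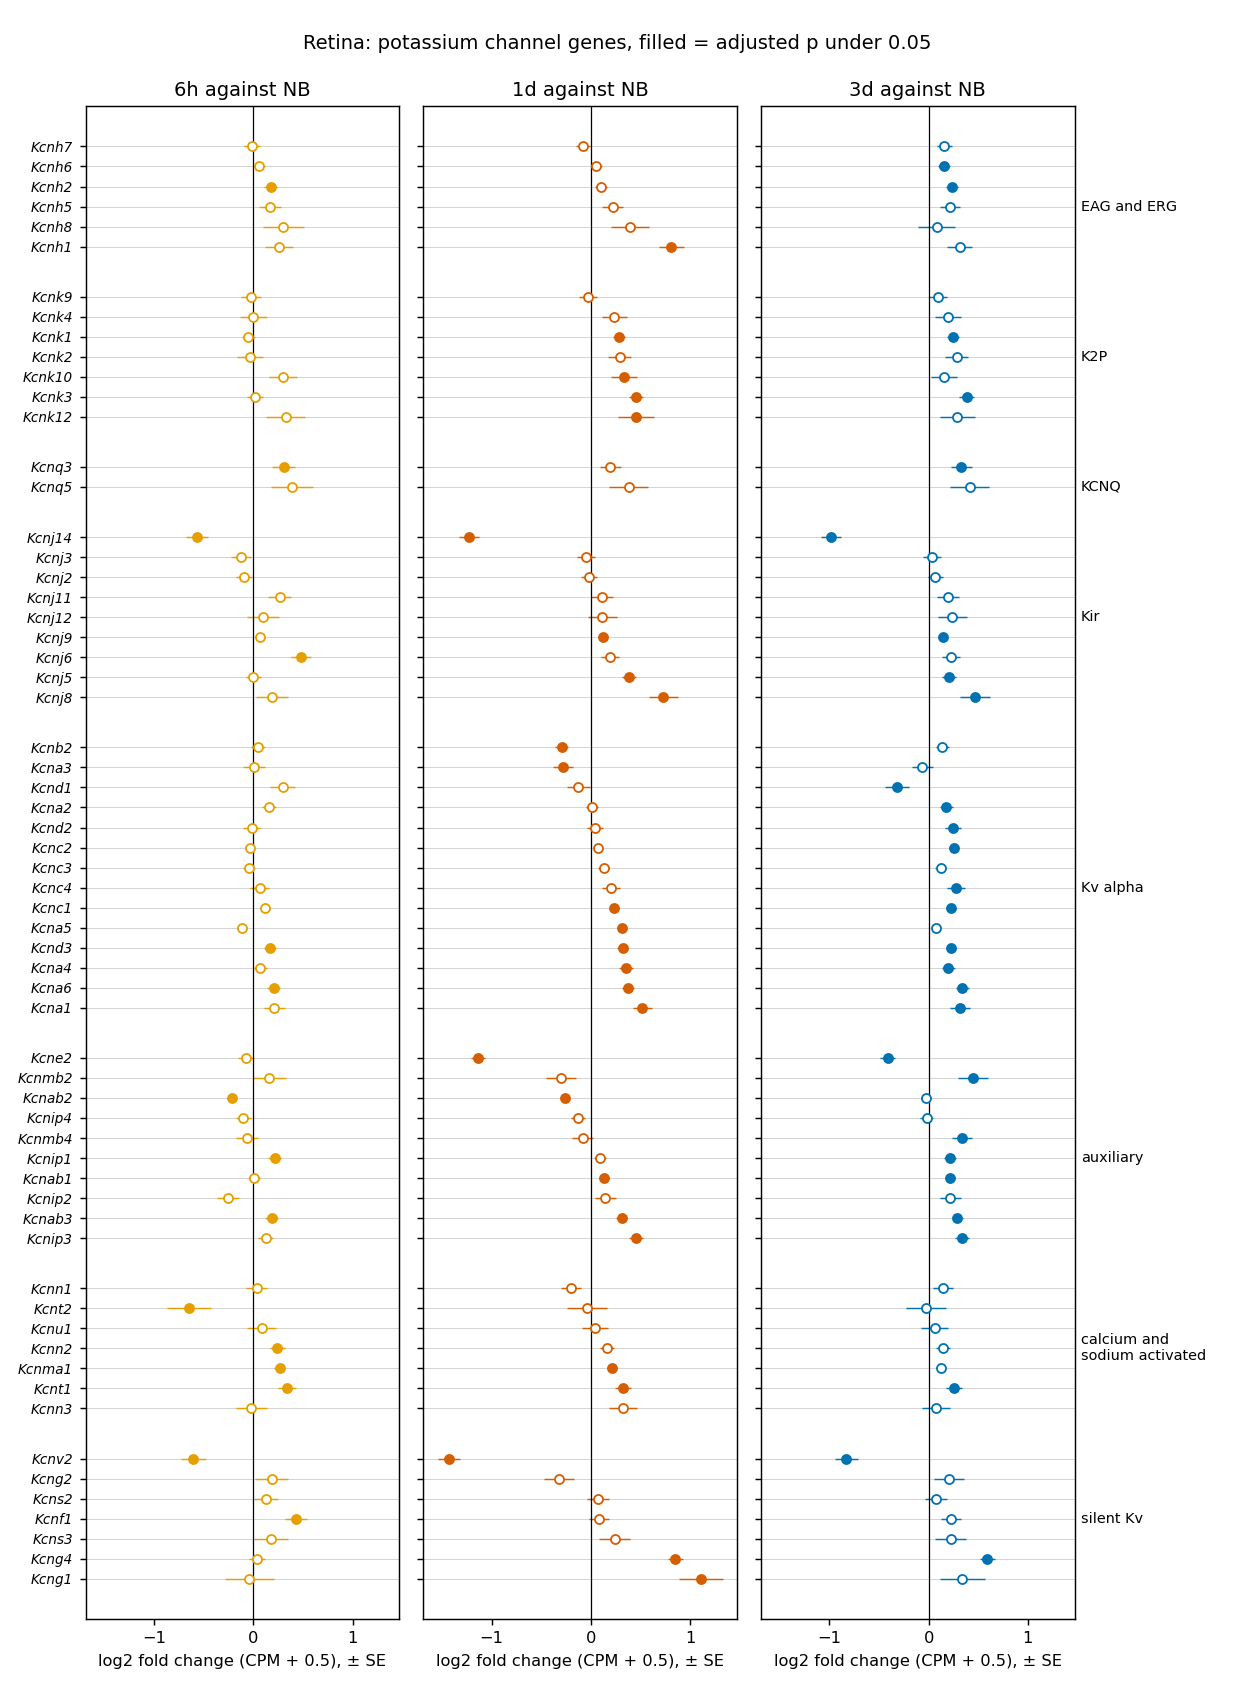
Log2 fold change against NB of 62 potassium channel genes in retina at 6h, 1d and 3d (x axis, log2 of CPM + 0.5, bars are the standard error), grouped by family (y axis); filled circles have an adjusted p under 0.05. Kcnv2, Kcnj14 and Kcne2 lie far to the left at 1d, while most other filled circles lie between 0 and 1.

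The size of the split rested on the scaling. With library totals in place of the authors' scaling, 42 of 65 members were higher and 4 lower at 1d, and 47 were higher at 3d. Over all 16930 genes, 7063 were then higher and 2448 lower at 1d, and 6007 were higher at 3d. Among called genes alone, the share that were higher went from 46.5% to 74.3% at 1d, from 44.6% to 77.0% at 3d and from 47.6% to 56.7% at 6h. That scaling moved the median log2 change of all genes to 0.15 at 1d and 0.12 at 3d. Against NB A1 and NB A2 alone, the NB libraries as deep as those of 6h, 3 of 65 members were higher at 6h. Over all genes 2016 of 16926 were higher in that setting, so the members' share lay below that of all genes. The count of members higher at 6h was 7 without 6h 1 and 6 without 6h 2, and the count at 3d was 17 without 3d 1.

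Kcnv2 (chr19:27322061-27337179) encodes Kv8.2, which forms no channel alone and changes the gating of its partner subunits. Its CPM in retina was 650 at the lowest, 690 at the median and 723 at the highest in NB, 436, 471 and 451 at 6h, 179, 253, 362 and 258 at 1d, and 348, 410, 391 and 402 at 3d. No library after NB reached the NB range, and the 1d libraries were mostly the lowest. The log2 fold change was -0.61 ± 0.13 at 6h (adjusted p = 0.001), -1.43 ± 0.12 at 1d (adjusted p = 5.4e-09) and -0.83 ± 0.12 at 3d (adjusted p = 1.5e-05). Between 1d and 3d it rose by 0.60 ± 0.13 (adjusted p = 0.0019), although the ranges of the 2 groups overlapped.

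Kcnj14 (chr7:45816467-45824747), an inward rectifier of the Kir2 type, also fell. Its CPM in retina was 457 at the lowest, 505 at the median and 546 at the highest in NB, 327, 350 and 336 at 6h, 173, 222, 282 and 193 at 1d, and 217, 262, 268 and 272 at 3d. Every library after NB lay below the NB range. On the log2 scale the change was -0.57 ± 0.11 at 6h (adjusted p = 0.00049), -1.23 ± 0.10 at 1d (adjusted p = 6.1e-09) and -0.98 ± 0.10 at 3d (adjusted p = 4.5e-07).

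Rod and cone markers moved with these falls. The summed CPM of 8 rod markers was 58551 to 65517 in NB, 34894 to 42747 at 6h, 18388 to 31975 at 1d and 30904 to 36003 at 3d, and that of 5 cone markers was 1175 to 1231, 974 to 1055, 358 to 621 and 863 to 989. Of the 8 rod markers 6, 8 and 7 were called lower at the 3 times, and of the 5 cone markers 2, 5 and 3. Fewer cells of a type and less RNA per cell cannot be told apart in these bulk samples, and the part of photoreceptor content in the channel values was not tested.

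Kcne2 (chr16:92292389-92298133) was near its NB level at 6h and fell at 1d. Its CPM in retina was 47.2 at the lowest, 49.7 at the median and 53.7 at the highest in NB, 48.3, 49.2 and 46.0 at 6h, 19.9, 28.3, 22.0 and 20.9 at 1d, and 40.8, 35.7, 36.2 and 38.2 at 3d. The 1d libraries lay below all others and the 3d libraries between 1d and NB. The change against NB was a log2 fold change of -1.14 ± 0.07 at 1d (adjusted p = 2.9e-10) and -0.41 ± 0.07 at 3d (adjusted p = 0.00018), and 3d exceeded 1d by 0.73 ± 0.08 (adjusted p = 2.2e-06). The summed CPM of 5 Müller glia markers was 3392 to 3822 in NB, 2790 to 2989 at 6h, 1501 to 1668 at 1d and 3940 to 4179 at 3d, but at 1d 2 of the 5 were called higher and 2 lower (median log2 fold change -0.01, from -2.10 to 0.48), so the sum did not describe the list.

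**Figure D2:**
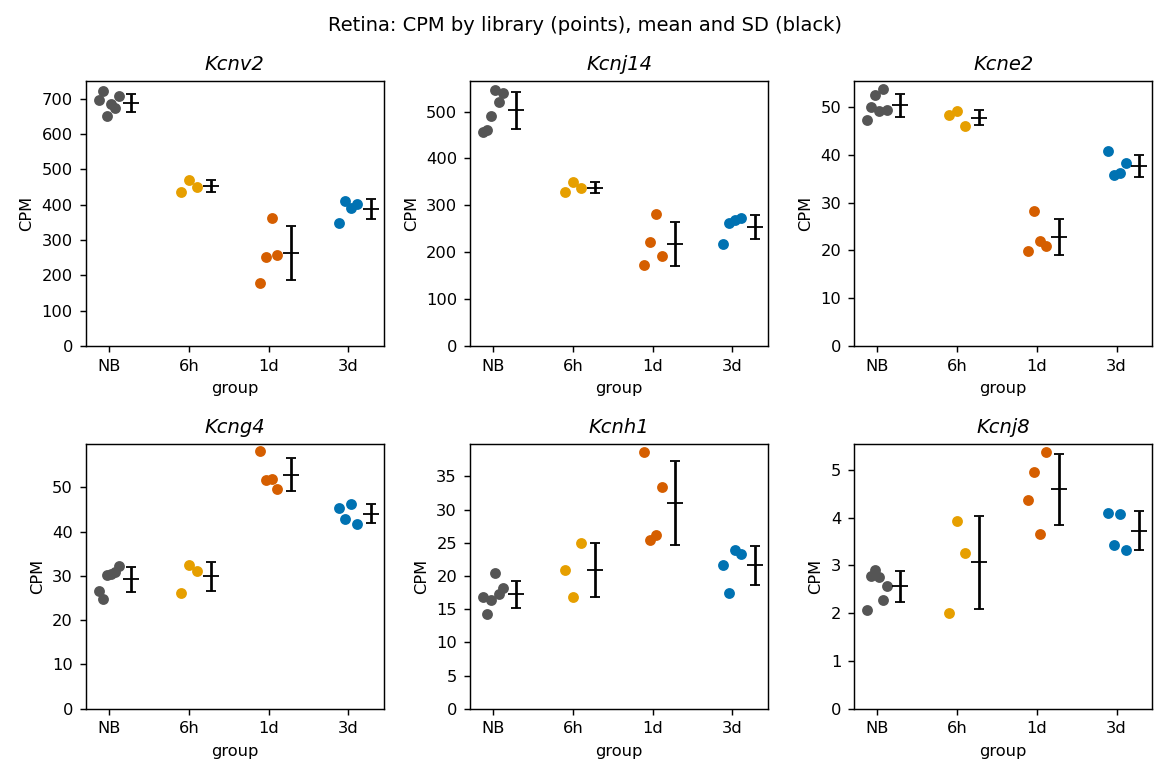
CPM (y axis, from 0) of 6 potassium channel genes in each retina library by group (x axis); points are libraries, black marks the mean and SD. Kcnv2, Kcnj14 and Kcne2 fall at 1d, while Kcng4, Kcnh1 and Kcnj8 rise.

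Among the silent Kv subunits, 2 of 7 (Kcng4 and Kcng1) were called higher at 1d and 1 (Kcnv2) lower. Kcng1 was scarce, at 0.476 ± 0.33 CPM (SD, n = 6) in NB and 1.57 ± 0.57 (n = 4) at 1d, with groups that overlapped. It reached a CPM of 1 in 1d 1, 1d 3 and 1d 4, and elsewhere only in NB B1 and 3d 2. Kcng1 thus met the CPM minimum only through the group where it was high, so its call at 1d is no support for a rise. Kcng4 (chr8:119623854-119635680), the Kv6.4 subunit, had a CPM in retina of 24.7 at the lowest, 30.3 at the median and 32.3 at the highest in NB, 26.1, 32.4 and 31.2 at 6h, 58.2, 51.7, 51.8 and 49.7 at 1d, and 45.3, 42.8, 46.3 and 41.7 at 3d. The 1d and 3d libraries lay above all NB and 6h libraries. In the limma fit the log2 fold change was 0.85 ± 0.08 at 1d (adjusted p = 2e-08) and 0.59 ± 0.08 at 3d (adjusted p = 5.8e-06). Kcnf1, another silent subunit, rose at 6h from 4.42 ± 0.44 CPM (SD, n = 6) to 6.14 ± 0.67 (n = 3), a log2 fold change of 0.43 ± 0.11 (adjusted p = 0.0042).

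Of the 6 EAG and ERG genes, voltage-gated channels with a cyclic-nucleotide-binding homology domain, Kcnh1 alone was called higher at 1d. Kcnh1 (chr1:192189144-192510159), the EAG1 channel, had a CPM in retina of 14.3 at the lowest, 17.1 at the median and 20.5 at the highest in NB, 20.9, 16.9 and 25.0 at 6h, 38.7, 25.4, 26.2 and 33.4 at 1d, and 21.7, 17.5, 23.9 and 23.3 at 3d. Only the 1d libraries were all above the NB range. The log2 fold change was 0.81 ± 0.13 at 1d (adjusted p = 2.7e-05), and 3d was below 1d by a log2 difference of -0.50 ± 0.14 (adjusted p = 0.014).

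The Kv alpha subunits, which repolarize neurons, were called higher more often than lower. Of 15 Kv alpha genes, 6 were higher and 3 (Kcnb2 and Kcna3 among them) lower at 1d, and 9 were higher and 2 (Kcnd1 among them) lower at 3d. Kcna1, a Kv1 channel of axons, rose from 16.4 ± 1.9 CPM (n = 6) to 23.5 ± 1.0 (n = 4) at 1d, a log2 fold change of 0.52 ± 0.10 (adjusted p = 0.00019). Kcna3, the Kv1.3 channel of leukocytes and neurons, was the reverse at 1d, with -0.28 ± 0.10 (adjusted p = 0.027) and CPM of 6.52, 6.75, 5.84 and 4.47 against 6.15 to 7.57 in NB; without 1d 4 it was -0.17 (adjusted p = 0.15), with library totals as scaling -0.12 (adjusted p = 0.32) and against NB of the same depth -0.26 (adjusted p = 0.08).

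In retina, KCNQ and tandem-pore genes, which carry M-type and leak currents, changed upward against NB where they were called. There 3 of 4 KCNQ genes (Kcnq3 among them) were higher at 3d, and 4 of 7 tandem-pore genes (Kcnk1, Kcnk3, Kcnk10 and Kcnk12) were higher at 1d. Kcnq3, a subunit of M channels, was higher at 6h by 0.30 ± 0.11 (adjusted p = 0.045) and at 3d by 0.33 ± 0.10 (adjusted p = 0.015), and its groups overlapped NB at both times. Kcnk3, the acid-sensitive leak channel TASK-1, had a CPM of 24.6 to 31.5 in NB, 27.5 to 28.7 at 6h, 36.5 to 39.8 at 1d and 32.5 to 41.2 at 3d, so that 1d and 3d did not overlap NB (0.45 ± 0.07, adjusted p = 3.5e-05, and 0.38 ± 0.07, adjusted p = 0.00031).

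Of the 9 inward rectifier genes in retina, 3 were higher and Kcnj14 was lower at both 1d and 3d. Kcnj6 of this family was called higher at 6h, with 9.01 ± 1.2 CPM (SD, n = 6) in NB and 12.7 ± 1.5 (n = 3) at 6h. Its log2 fold change in limma was 0.48, and against NB A1 and NB A2 alone 0.30 (adjusted p = 0.057). Kcnj8, which is known from pericytes, had a CPM in retina of 2.07 at the lowest, 2.66 at the median and 2.91 at the highest in NB, 2.00, 3.94 and 3.25 at 6h, 4.38, 4.96, 3.66 and 5.38 at 1d, and 4.10, 3.44, 4.07 and 3.32 at 3d. The 1d and 3d libraries lay above the NB range. On the log2 scale the change was 0.73 ± 0.15 at 1d (adjusted p = 0.00041) and 0.47 ± 0.15 at 3d (adjusted p = 0.016; 0.0504 without 3d 1 and 0.0502 without 3d 3). Beside it, the summed CPM of 5 pericyte and fibroblast markers was 95.9 to 114 in NB, 114 to 123 at 1d and 137 to 157 at 3d, that of 5 endothelial markers was 270 to 299, 476 to 508 and 513 to 598. Of the pericyte and fibroblast markers 1 was called higher at 1d and 4 at 3d, of the endothelial markers all 5 at both times, and their part was not tested.

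Auxiliary subunits, which set trafficking and gating, were called in both directions. At 3d 6 of 10 were higher and Kcne2 was lower. Kcnab2, the Kvβ2 subunit of Kv1 channels, was lower at 6h (-0.22 ± 0.05, adjusted p = 0.0025) and 1d (-0.26 ± 0.05, adjusted p = 0.00012), with CPM of 249 to 264 in NB, 209 to 232 at 6h, 195 to 237 at 1d and 241 to 264 at 3d. With library totals as scaling its 1d value was -0.09 (adjusted p = 0.093), and its 3d value went from -0.03, not past the test, to 0.13, called higher (adjusted p = 0.0232). Among calcium-activated and sodium-activated channels, Kcnma1, the BK pore, was higher at 6h by 0.26 ± 0.06 (adjusted p = 0.001; 0.20 and 0.066 against NB A1 and NB A2) and at 1d by 0.21 ± 0.05 (adjusted p = 0.0019).

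From 1d to 3d, 10 retina members rose and 4 (Kcng1, Kcnh1, Kcng4 and Kcna5) fell, beside 9.79% and 11.6% of all genes. Of these, Kcng1 met the CPM minimum only through the 1d libraries. Kcnb2, a delayed rectifier, rose by 0.43 ± 0.07 (adjusted p = 0.00028) and Kcnmb2, a BK auxiliary subunit, by 0.75 ± 0.16 (adjusted p = 0.0026). Kcna5, a Kv1 channel, was lower at 3d by a log2 difference of -0.23 ± 0.05 (adjusted p = 0.0024). The count of members that fell was 1 without 1d 1 and 2 without 3d 2 or without 3d 4.

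Other genes of potassium handling were read from 3 lists. Of 11 tested partners of these channels, 5 were higher and 2 lower in retina at 1d, and 7 were higher and 2 lower at 3d. Over all genes 24.0% were higher and 27.5% lower at 1d, and 19.3% and 23.9% at 3d. Dlg4, the scaffold PSD-95, went from 977 ± 57 CPM in NB to 702 ± 119 at 1d (-0.49 ± 0.08, adjusted p = 3.9e-05) and 653 ± 21 at 3d. Hcn4, a hyperpolarization-activated channel, rose at 1d from 18.9 ± 2.3 to 29.4 ± 2.9 CPM (0.63 ± 0.10, adjusted p = 1.7e-05). Among 5 cation-chloride cotransporters, Slc12a4 rose at 6h from 13.4 ± 1.5 to 27.3 ± 0.80 CPM (1.01 ± 0.10, adjusted p = 5.1e-07).

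Most shared members had a lower NB CPM in the RPE libraries than in retina. The tables of the tissues were normalized separately, so a level is set across them here only as a description. Over the 49 shared members the mean NB level in RPE had a median of 8.78% of that in retina. The 8 rod markers stood at 6.18% to 10.4%, so that the members' median lay within their range. Bipolar markers ran from 1.95% (Grm6) to 183% (Trpm1). The part of carried-over retina RNA in the members' levels was not tested. By the same measure 21 members were above the highest rod marker and 5 were above 100%, among them Kcnq5 (909%), Kcnt2 (239%), Kcnj8 (229%) and Kcnh1 (190%). Kcnv2 (5.62%) and Kcnj14 (7.88%) lay in or just under the rod marker range.

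**Figure D3:**
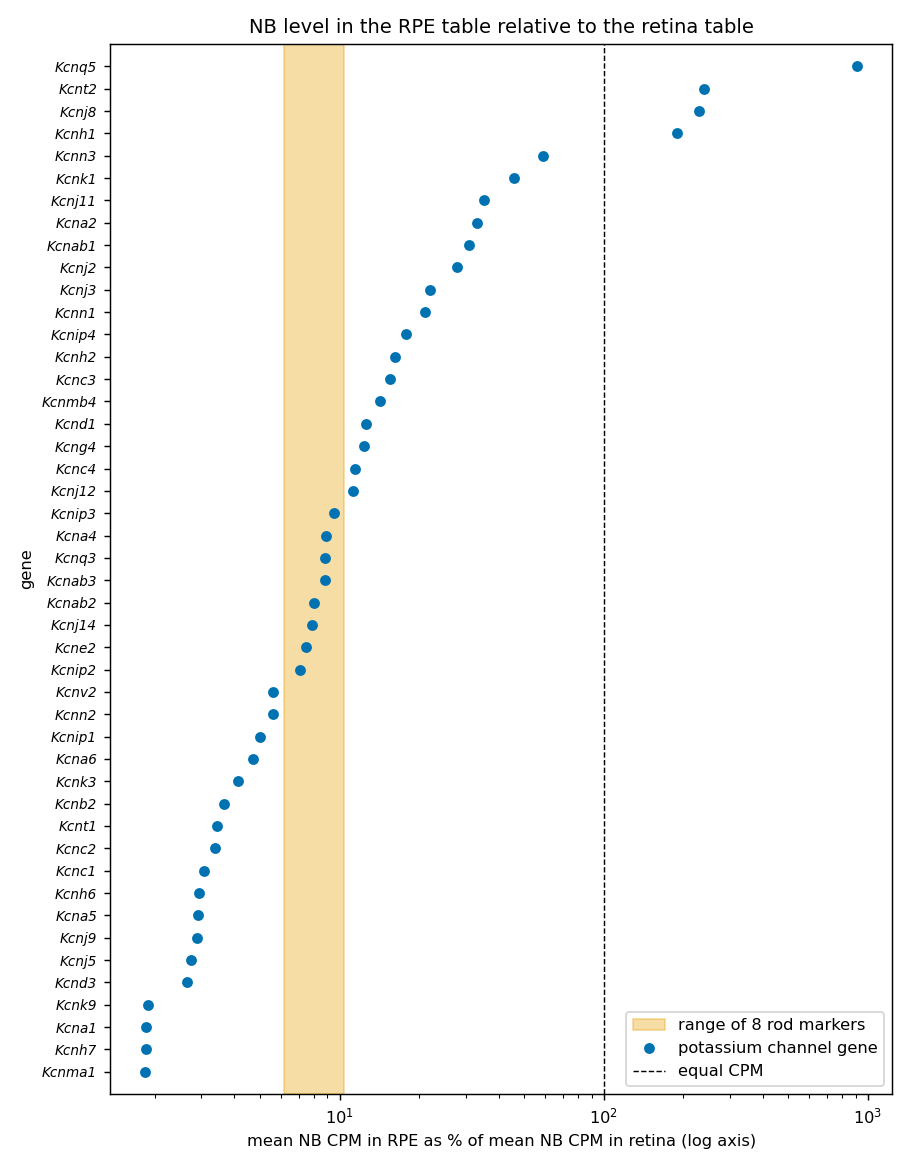
Mean NB CPM in RPE as a percentage of mean NB CPM in retina (x axis, log scale) for 46 of the 49 potassium channel genes in both tissues (y axis); the band is the range of 8 rod markers and the dashed line marks equal CPM. Kcnq5, Kcnt2, Kcnj8 and Kcnh1 lie to the right of the line.

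Few RPE members passed the test. Against NB, 1 of 60 was higher and 1 lower at 6h (0.808% and 0.652% of all genes), 1 higher and 4 lower at 1d (1.77% and 3.84%), and 0 higher and 0 lower at 3d (0.162% and 0.018%). At 3d limma gave 9 members at an unadjusted p under 0.05, 5 higher and 4 lower, and edgeR's quasi-likelihood test called 0. With library totals as scaling, the share of called genes that were higher went from 55.3% to 81.0% at 6h and from 90% to 100% at 3d. The median log2 fold change of the members was 0.56, 0.17 and 0.28, with all-gene medians of 0.00, 0.00 and 0.00. At 6h limma gave 30 members an unadjusted p under 0.05, 26 of them higher. The share of all genes at that unadjusted threshold was not counted at 6h or 3d. These unadjusted counts therefore give no result about the members.

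Across settings the count of RPE members higher at 6h ran from 0 (without 6h 1, 6h 3, NB B1, NB B2 or NB B4) to 8 (without 6h 2), with 4 without NB A1 and 5 in edgeR. Over all genes edgeR called 240 of 16712 higher, against 135 in the main fit. The rod marker sum in the RPE libraries was 3650 to 5935 CPM in NB and 8464, 5003 and 13713 CPM in 6h 1, 6h 2 and 6h 3. Kcnv2, whose CPM in RPE was 45.6, 43.6, 29.1, 43.3 and 31.9 in NB and 75.9, 35.9 and 111 at 6h, had its lowest 6h value in the same library, and its change did not pass the test. The part of rod RNA in these values was not tested.

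Kcnk13 (chr12:99963149-100062682), the tandem-pore channel THIK-1 known from microglia, was lower at 6h and 1d. Its CPM in RPE was 4.59, 3.79, 4.31, 2.64 and 2.99 in NB, 1.01, 1.52 and 1.67 at 6h, 1.42, 1.37, 1.08 and 1.51 at 1d, and 2.47, 3.296, 2.78 and 3.27 at 3d. The 6h and 1d libraries lay below every NB and 3d library. In the limma fit the log2 fold change was -1.12 ± 0.19 at 6h (adjusted p = 0.014) and -1.16 ± 0.17 at 1d (adjusted p = 0.00083), and 3d exceeded 1d by 0.90 ± 0.18 (adjusted p = 0.01). The 6h value was -1.44 against NB A1, a single library, -0.97 (adjusted p = 0.15) without 6h 1 and -1.23 (adjusted p = 0.0504) without 6h 3. The summed CPM of 7 microglia and macrophage markers in the table was 221 to 308 in NB, 143 to 197 at 6h, 106 to 146 at 1d and 259 to 375 at 3d. Of the 7 markers 1 was called lower at 1d (median -0.19, from -1.53 to 0.48), the median was -0.35 at 6h, and their part was not tested.

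**Figure D4:**
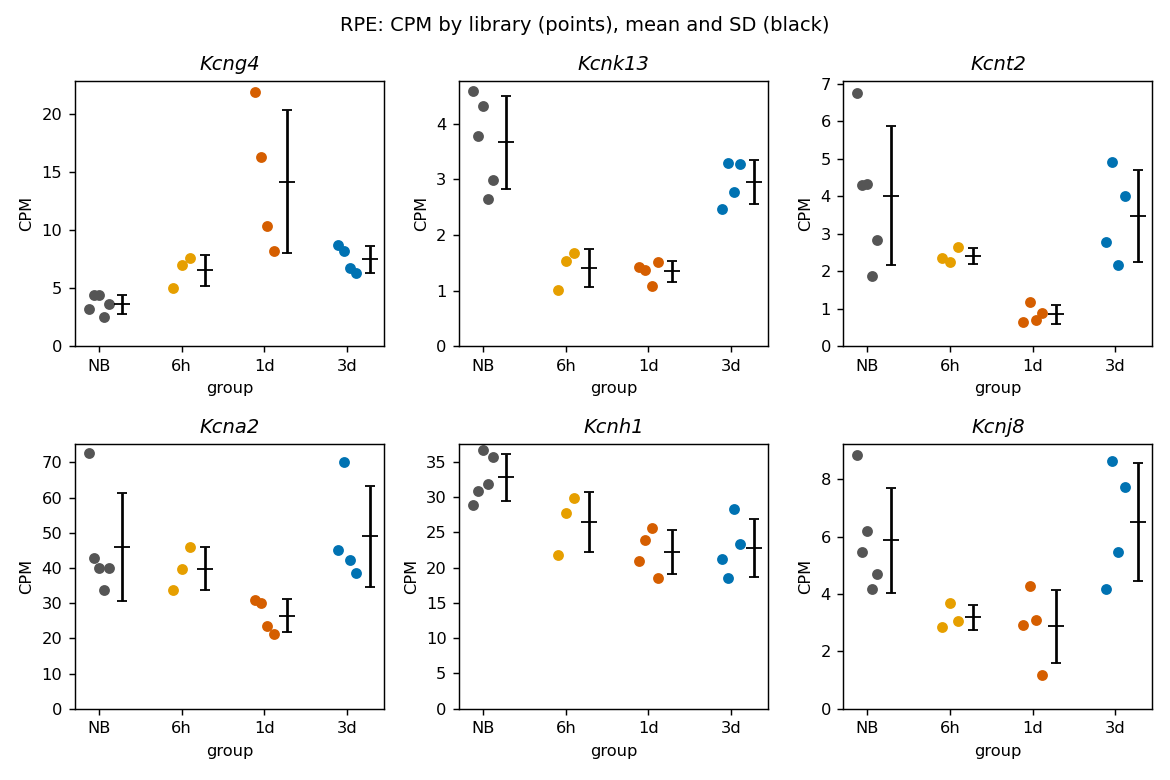
CPM (y axis, from 0) of 6 potassium channel genes in each RPE library by group (x axis); points are libraries, black marks the mean and SD. Kcnk13 and Kcnt2 have their lowest values at 1d or 6h, and Kcng4 its highest at 1d.

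Kcnt2 (chr1:140245657-140614045), a sodium-activated channel, was lowest at 1d. Its CPM in RPE was 6.76, 4.30, 4.31, 1.86 and 2.84 in NB, 2.35, 2.23 and 2.64 at 6h, 0.631, 1.18, 0.695 and 0.872 at 1d, and 2.78, 4.91, 2.17 and 4.02 at 3d. The 1d libraries lay below all others. The log2 fold change was -1.66 ± 0.28 at 1d (adjusted p = 0.0021), and 3d exceeded 1d by 1.52 ± 0.30 (adjusted p = 0.0081).

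Kcng4 was the RPE member called higher at 1d. Its CPM in RPE was 3.16, 4.37, 4.39, 2.48 and 3.61 in NB, 5.02, 6.95 and 7.58 at 6h, 21.9, 16.3, 10.3 and 8.17 at 1d, and 8.72, 8.20, 6.69 and 6.32 at 3d. Every library after NB lay above the NB range. On the log2 scale the change was 1.76 ± 0.24 at 1d (adjusted p = 0.00041), with 0.78 at 6h (adjusted p = 0.14) and 0.97 at 3d (adjusted p = 0.19) not past the test. Kcng4 was thus called higher at 1d in both tissues, and the change in the RPE libraries was larger by 0.92 ± 0.25 (adjusted p = 0.0091 for the difference). The rod marker sum in RPE 1d 1 to 1d 4 was 7878, 6834, 4427 and 2876 CPM, the same order as Kcng4. In NB that sum was 3650 to 5935 CPM. The part of carried-over retina RNA in the RPE values of Kcng4 was not tested.

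Kcnh1 in RPE went the other way from retina. Its CPM was 28.9, 30.8, 36.6, 31.9 and 35.7 in NB, 21.7, 27.7 and 29.9 at 6h, 20.9, 23.9, 25.6 and 18.5 at 1d, and 21.2, 18.5, 28.2 and 23.3 at 3d. The 1d and 3d libraries lay below NB, at 3d only narrowly (28.2 at the highest against 28.9 at the lowest in NB). The 3d change did not pass the test. The log2 fold change at 1d was -0.56 ± 0.13 (adjusted p = 0.024; between 0.057 and 0.079 without NB B2, NB B4, 1d 1 or 1d 4), and the response differed from that of retina by -1.37 ± 0.20 (adjusted p = 7.5e-06).

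Kcna2, a Kv1 channel, and Kcnj8 had low values in RPE at 1d and higher ones at 3d. Kcna2 CPM in RPE was 72.7, 42.8, 40.01, 33.8 and 40.1 in NB, 30.9, 30.1, 23.6 and 21.3 at 1d and 45.0, 70.1, 42.2 and 38.6 at 3d. The fall against NB was -0.74 ± 0.21 (adjusted p = 0.0498), with -0.57 (adjusted p = 0.096) without NB A1 and adjusted p from 0.063 to 0.14 without NB B1, NB B2, NB B4 or any 1d library, while 3d exceeded 1d by 0.85 ± 0.22 (adjusted p = 0.034). Kcnj8 CPM in RPE was 8.86, 5.46, 6.20, 4.19 and 4.68 in NB, 2.85, 3.68 and 3.05 at 6h, 2.92, 4.28, 3.09 and 1.19 at 1d, and 4.17, 8.64, 5.47 and 7.73 at 3d. The 3d range overlapped that of 1d, and 3d exceeded 1d by 1.1 ± 0.30 (adjusted p = 0.039), while the 1d value against NB, -0.97 ± 0.28, did not pass (adjusted p = 0.056; 0.037 without NB B3 and 0.034 without 1d 2). Pericyte and fibroblast markers summed to 126 to 261 CPM in NB, 117 to 186 at 1d and 190 to 260 at 3d, with a median log2 fold change of -0.69 at 1d. The summed CPM of 8 RPE markers was 12895 to 22825 in NB, 7777 to 11206 at 6h, 5770 to 10216 at 1d and 13204 to 23393 at 3d, with 5 of 8 called lower at 1d, and its part in these values was not tested.

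From 1d to 3d, 5 RPE members rose (Kcnt2, Kcnj8, Kcnk13 and Kcna2 among them) and 0 fell, beside 4.92% and 1.66% of all genes. limma gave 2 members lower at an unadjusted p under 0.05, a threshold at which all genes were not counted, and edgeR called 0 lower. The count that rose was 3 without 1d 3 or without 3d 4 and 2 without 1d 4 or without 3d 2.

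The 11 members in RPE alone included epithelial channels, and of them Kcnk13 alone was called. Kcnq1, the KCNQ pore of many epithelia, was 1.62 ± 0.63 CPM (n = 5) in NB, 1.26 ± 0.23 at 6h, 1.22 ± 0.16 at 1d and 1.27 ± 0.37 at 3d. Kcnj15, an inward rectifier, was 23.7 ± 7.7 CPM in NB and 14.0 ± 8.2 at 3d (-0.95 ± 0.38, adjusted p = 0.43). The other lists gave Abcc8 (1.03 ± 0.23, adjusted p = 0.041) higher at 6h and Cntnap2, an axonal partner of Kv1 channels, lower at 1d (-0.91 ± 0.20, adjusted p = 0.014).

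The responses of the 49 shared members were compared between the tissues in 1 fit, as the RPE change minus the retina change. At 6h 13 were higher and 1 was lower in RPE (9.0% and 8.56% of 15105 genes, 17.6% in either direction), at 1d 4 and 5 (9.66% and 12.1%, 21.7%), and at 3d 1 and 2 (6.26% and 5.93%, 12.2%). Kcnv2 and Kcnj14, which fell in retina, differed by 1.41 ± 0.38 (adjusted p = 0.011) and 1.36 ± 0.39 (adjusted p = 0.017) at 6h, and by 1.18 ± 0.35 (adjusted p = 0.015) and 1.34 ± 0.36 (adjusted p = 0.0074) at 1d. Neither was called in RPE against NB at any time. Their NB levels in RPE (5.62% and 7.88% of retina) were near those of rod markers, and the part of carried-over rod RNA was not tested. Kcnj8, higher in retina at 1d and in RPE at a log2 value of -0.97 that did not pass (adjusted p = 0.056), gave a difference of -1.70 ± 0.32 (adjusted p = 0.00028). The count at 6h, 14 in both directions, was 8 without retina 6h 1, 6 without retina 6h 3, 5 without RPE 6h 1, 2 without RPE 6h 3 and 25 in edgeR. Over all genes edgeR called 1662 higher and 1493 lower at 6h, against 1360 and 1293 in the main fit. At 1d the 9 became 14 without RPE 1d 4, and at 3d the 3 became 1 without retina NB A2, retina 3d 1, retina 3d 4, RPE NB B3 or RPE 3d 1.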

How the data were processed

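RNA of retina (17 libraries) and RPE (16 libraries) was analysed. The authors deposited CPM values per gene, which the submitters' processing notes associate with Trimmomatic, STAR and edgeR and the build GRCm38; the versions, the counting step and whether it used strand are not given in the sources used here. Low values of all libraries were whole multiples of what 1 read is worth (100% within 0.01 read), so reads were recovered from the deposited CPM. This signal is CPM on an effective library size, as deposited by the authors, so sums differ between libraries. NB columns could be matched to their group but not to single samples, and are named A1, A2 and B1 to B4 here after the column names. Ensembl identifiers were matched to symbols, leaving 6 retina and 7 RPE identifiers unmatched.

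The main test was limma 3.58.1 in R 4.3.3 on log2(CPM + 0.5), with all groups of a tissue in 1 fit, a mean trend, genes at a CPM of at least 1 in 3 libraries, and Benjamini-Hochberg adjustment over all genes at 0.05. Tissue differences were tested as an interaction in a fit of both tissues. A fold change on this scale understates the change of low genes, and the p-values measure the spread between these mice. Alternatives were pseudocounts of 0.1 and 2, no filter, library totals as scaling, edgeR 4.0.16 quasi-likelihood on the recovered reads, NB libraries of the same depth, leaving out each library, and the replicate number as a block. The scripts were tested on simulated data.

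Genes were named by a rule: per tissue and time against NB, up to 4 called members with the largest rise and up to 4 with the largest fall among those with groups that do not overlap and a mean CPM of at least 2 in the higher group, the 5 members with the highest NB level, and a fixed set with Kcnv2, Kcnq1, Kcnj8, Kcna3 and Kcnk13. Results of some genes are not reported here, although the counts include them. The level was ranked on CPM, since no transcript length was at hand, and levels of different genes are not compared. Kcng1, Kcnq3, Kcnb2, Kcnmb2, Kcna5 and Kcnj15 were named after their values were seen. The members, lists and markers were chosen with earlier results of these data known. Promoter sequences came from RefSeq (GRCm38.p6).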

Additional observations from a re-analysis of the deposited data

Results flagged for a closer look

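Single libraries stood apart in 3 of 81 groups of 4 to 10 libraries examined for the named genes, where chance gives about 1 in 20. Kcnf1 in retina 1d 1 was 5.22 CPM, with the other 1d libraries at 4.47 to 4.56. Kcna3 in retina NB B2 was 6.15 CPM, with the other NB libraries at 7.27 to 7.57. Kcna2 in RPE NB A1 was 72.7 CPM, with the others at 33.8 to 42.8.

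Responses that differed between the tissues are given as the RPE minus the retina log2 change against NB (limma interaction). At 6h the difference was 1.36 for Kcnj14, 1.57 ± 0.45 for Kcnma1 (adjusted p = 0.015) and 1.41 for Kcnv2. At 1d it was -1.63 ± 0.35 for Kcnt2 (adjusted p = 0.0011), -1.37 for Kcnh1, -0.76 ± 0.22 for Kcna2 (adjusted p = 0.014), -1.70 for Kcnj8, 1.34 for Kcnj14, 0.92 for Kcng4 and 1.18 for Kcnv2. At 3d it was -0.84 ± 0.20 for Kcnh1 (adjusted p = 0.0057).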

How the results depend on the processing

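Counts of members called higher in retina moved from 13 to 3 at 6h against NB libraries of the same depth, and with library totals as scaling from 23 to 42 at 1d (lower, 7 to 4) and from 27 to 47 at 3d. Over all genes the higher calls went from 2854 to 2016 at 6h against NB of the same depth. With library totals they went from 4057 to 7063 at 1d (lower, 4662 to 2448) and from 3265 to 6007 at 3d. In RPE at 6h the 1 higher became 2 with a pseudocount of 2 and 5 in edgeR, while over all genes 135 became 140 and 240. NB of the same depth was a single RPE library, NB A1, so no count is read from that setting. In edgeR 25 members, not 14, differed between tissues at 6h. Over all 15105 genes edgeR called 1662 higher and 1493 lower in RPE, against 1360 and 1293 in the main fit. Kcnab2 in retina at 3d turned from -0.03, not past the test, to 0.13, called higher (adjusted p = 0.0232), with library totals as scaling. With each library left out, the counts ran as follows. In retina they were 6 to 13 higher at 6h, 17 to 30 higher at 3d and 1 to 5 lower at 3d against 1d. In RPE they were 0 to 8 higher and 0 to 1 lower at 6h, 1 to 2 higher and 2 to 6 lower at 1d, and 2 to 5 higher and 0 to 1 lower at 3d against 1d. Between tissues they were 2 to 20 at 6h, 8 to 14 at 1d and 1 to 4 at 3d. The cause of these moves was not tested; depth and the time 6h are partly confounded.

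Replicate numbers did not pair 1d with 3d: deviations of same-numbered samples correlated at -0.32 to 0.23 in retina and -0.04 to 0.16 in RPE. With the replicate number as a block, 6 retina members (10 without the block) and 2 RPE members (5 without) were higher at 3d against 1d; over all genes the calls were 1144 higher and 1487 lower in retina and 189 and 41 in RPE. No paired analysis was possible for comparisons with NB because NB columns could not be matched to numbered samples. Genes at a few CPM, such as Kcnt2 and Kcnk13 in RPE, rest on few reads and are less precise.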

Other observations

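The summed CPM of all potassium channel genes was 5408 ± 226 (SD, n = 6) in retina NB, 5600 ± 244 (n = 3) at 6h, 4330 ± 347 (n = 4) at 1d and 4408 ± 170 (n = 4) at 3d. In RPE it was 651 ± 41 (n = 5), 988 ± 265 (n = 3), 706 ± 194 (n = 4) and 717 ± 53 (n = 4). These sums are given with no test.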
